A study of Homo sapiens with 6 samples.

Results

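ABC transporters, bile acid carriers and organic ion carriers move bile salts, sterols, phospholipids, drugs and conjugated metabolites across hepatocyte membranes. Their genes were followed in HepG2 cells, an established line of human hepatocellular carcinoma origin, after knockdown of DGUOK, the gene of the mitochondrial enzyme deoxyguanosine kinase. Members were taken by symbol: protein-coding genes of the ABCA, ABCB, ABCC, ABCD, ABCG, SLC10, SLC22, SLC47, SLC51 and SLCO families. This gave 83 of the 34036 genes in the count table, 41 of them ABC genes and 42 SLC or SLCO genes. RNA was sequenced as 3 siControl and 3 siDGUOK libraries. All cells were transfected with Lipofectamine RNAiMAX and harvested after 48 h; siDGUOK cells received a pool of siGENOME siRNAs against DGUOK (Dharmacon) and siControl cells a non-targeting siRNA. The pool is a single reagent, so effects of DGUOK loss and of the siRNAs themselves cannot be told apart in these libraries.

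In liver, bile acids enter hepatocytes from blood through NTCP and the OATP carriers, and leave into bile through BSEP. When export into bile is impaired, carriers of the basolateral membrane such as OSTα/OSTβ, MRP3 and MRP4 return bile acids to blood, and the nuclear receptor FXR links bile acid levels to the transcription of several of these genes. ABC transporters of the canalicular membrane also secrete phospholipid, cholesterol and drug conjugates, and ABCA1 loads cholesterol onto apolipoprotein A-I.

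The libraries held 19065684, 18915508 and 10527216 counts on genes in siControl replicates 1, 2 and 3, and 18613138, 15978314 and 21334876 counts in siDGUOK replicates 1, 2 and 3. Of these counts, the 83 transporter genes together took between 0.170% and 0.178% in each library. DGUOK was at 54.4, 53.1 and 48.2 CPM (counts scaled by TMM-adjusted library size) in siControl replicates and at 9.08, 10.5 and 6.72 CPM in siDGUOK replicates. The groups were apart, with DGUOK lower by edgeR at a log2 fold change of −2.57 (standard error 0.19, edgeR adjusted p = 1.64e-08), so that DGUOK separates the libraries as the titles do. In the labels, the treatment entry reads siControl for each of the 6 samples. One library stood apart: siDGUOK replicate 1 had a count for 21057 genes, against 16205 to 17583 in the other libraries. In it alone, 2645 genes were counted, 11 of them transporter genes: ABCA13, ABCB5, ABCC8, ABCC9, ABCD2, SLC10A1, SLC22A2, SLCO1A2, SLCO1B1, SLCO1B3 and SLCO3A1. Without this library 13 of 50 tested transporter genes were called, where 1882 of all 15243 genes tested were called. Against the fit of all libraries ABCC6 was lost and ABCC3 gained.

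Of the 83 genes, 9 had no count in any library, 26 had counts too low for the filter and 48 were tested. Calls required an adjusted p under 0.05 together with a log2 fold change beyond 0.5 in either direction. Of the 48 tested transporter genes 13 were called (27.1%), where 14.1% of all 14476 genes tested were called. By the adjusted p alone there were 14, or 29.2%, beside 19.7% of all genes. Those called lower in siDGUOK cells numbered 11, against 6.68% of all genes, and those called higher numbered 2, against 7.42% of all genes. Without siControl replicate 3 those called lower numbered 7 of 50 tested, where 791 of all 15312 genes tested were called lower. For 19 of the 48 genes the siControl and siDGUOK values were apart, a share of 39.6% beside 36.0% of all genes. The median log2 fold change over the tested members was 0.03, and over all genes 0.02. The median of members was negative in each fit that left out 1 library, from −0.12 without siDGUOK replicate 3 to −0.012 without siControl replicate 1, and −0.094 among genes with a mean CPM above 1, so it has no steady direction. The calls lay mostly outside the ABC genes, with 9 of 20 tested SLC and SLCO genes and 4 of 28 tested ABC genes called. This difference between the families was not tested.

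**Figure D1:**
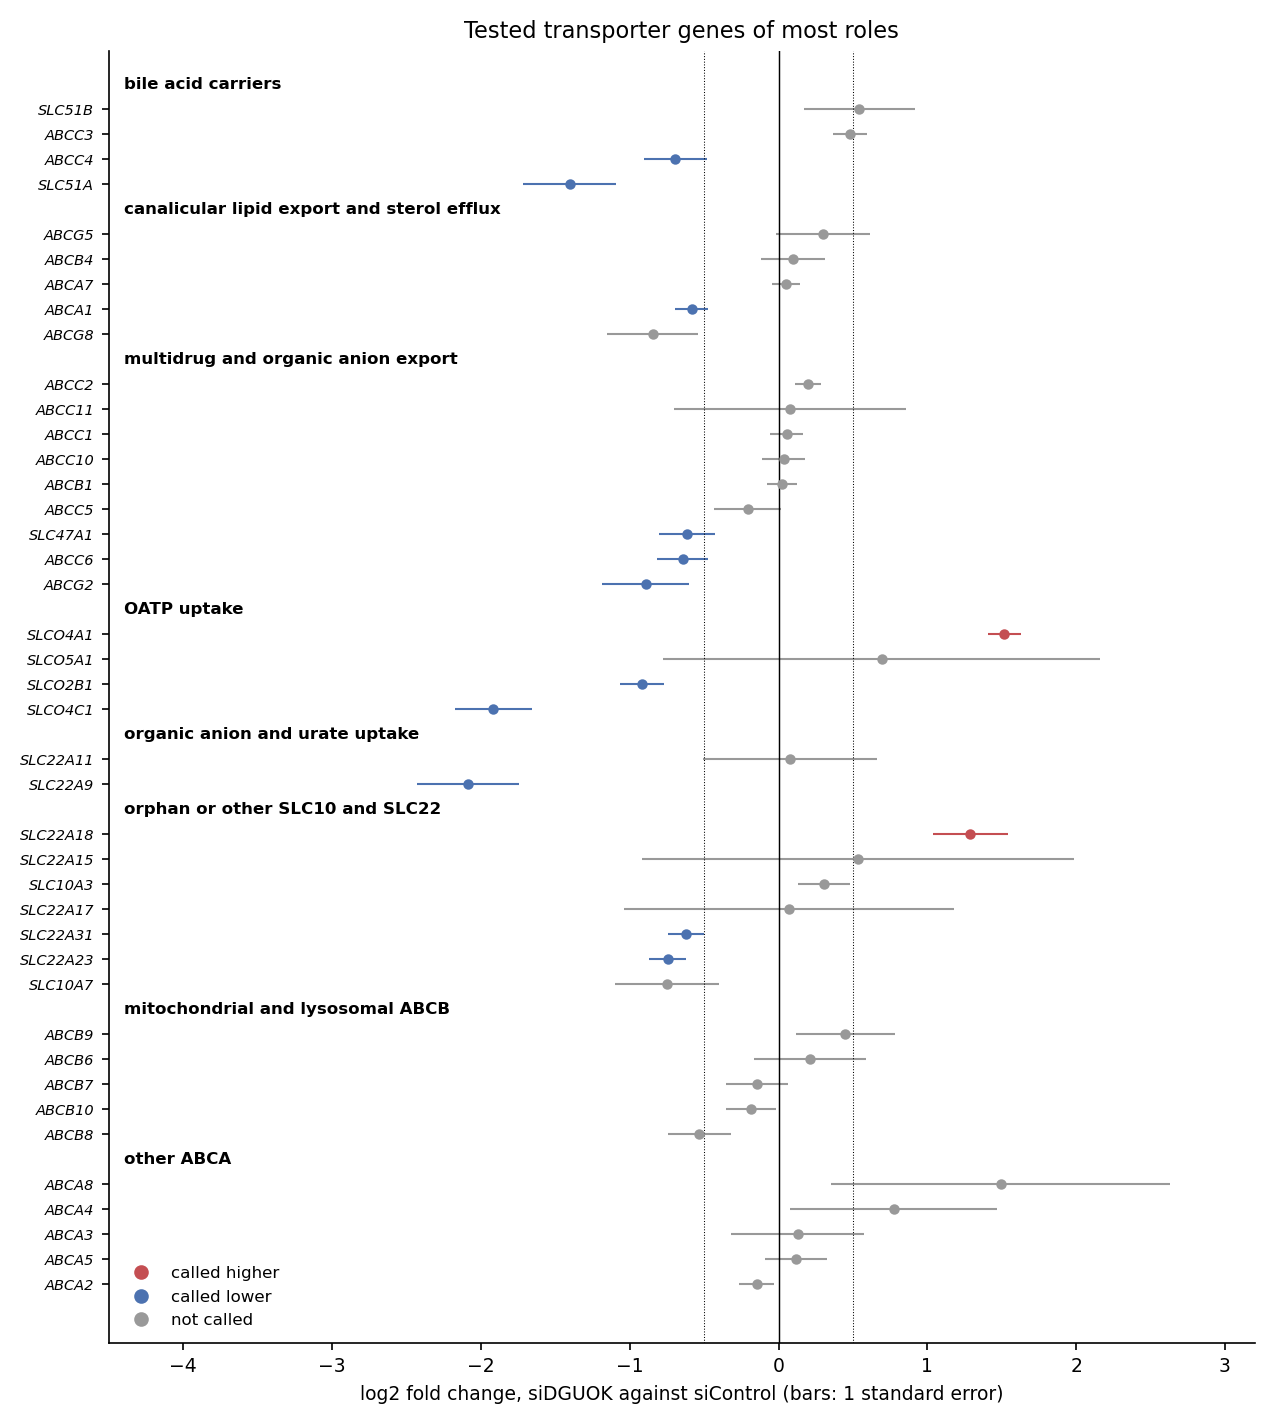
Log2 fold change in siDGUOK against siControl cells for tested transporter genes, grouped by role, with bars of 1 standard error from edgeR's fit of 3 libraries a group. Red points were called higher, blue points called lower and grey points not called; dotted lines mark 0.5 in each direction. Carriers of organic cations and carnitine and the ABCD genes are not drawn. SLCO4A1 is highest among those called, at 1.52, and SLC22A9 lowest, at −2.08.

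Among the genes of bile acid carriers, SLC51A fell while its partner SLC51B was not called. SLC51A and SLC51B encode OSTα and OSTβ, the subunits that must pair to form the basolateral bile acid and steroid carrier. SLC51A (ENSG00000163959.9; chromosome 3 of GRCh38, from 196211487 to 196243178) was at 12.9, 25.1 and 15.6 CPM in siControl and at 6.00, 9.66 and 4.74 CPM in siDGUOK replicates. All siDGUOK values lay below all siControl values, and siControl replicate 2 was the highest. The change was −1.40 on the log2 scale (standard error 0.31, edgeR adjusted p = 0.00329). SLC51B (ENSG00000186198.3; chromosome 15, from 65045387 to 65053397) was at 6.14, 8.05 and 2.96 CPM in siControl and at 8.81, 9.48 and 6.99 CPM in siDGUOK replicates. These groups overlapped, and the fitted change was 0.54 (standard error 0.37, edgeR adjusted p = 0.366). It was 0.25 without siControl replicate 3 and 0.87 without siControl replicate 2, and was not called in either.

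Set against each other within a library, the counts of SLC51A were 2.10, 3.13 and 5.29 times those of SLC51B in siControl replicates 1, 2 and 3. In siDGUOK replicates the same ratio was 0.681, 1.02 and 0.678. These ratios take no account of exon length, which is 5263 bases for SLC51A and 924 for SLC51B. Per kb of exon they were 0.369, 0.549 and 0.929 in siControl and 0.120, 0.179 and 0.119 in siDGUOK replicates. Divided by the merged length of all annotated exons, SLC51A lay below SLC51B in every library. By counts it lay above SLC51B in every siControl library, so the order of the pair depends on the length used. Which transcripts of these genes were expressed was not tested. The ratio needs no library scaling, and every siDGUOK value lay below every siControl value. This pair was singled out after its values were seen, so the ratio is given with no test. Some of the exonic sequence of SLC51A (7.39%) is shared with PCYT1A on the other strand, whose own log2 fold change was −0.01. That overlap is from Gencode 44, while the authors used Gencode 27. Under default settings, reads from stretches shared in Gencode 27 would be left out by the counting.

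The 300-base promoter windows of the 2 subunit genes, from 250 bases before to 50 bases after the RefSeq start on GRCh38.p14, are shown because the genes encode partners of 1 carrier and SLC51A alone was called. As Gencode bounds the genes, the printed windows of SLC51A, ABCG8, SLC22A10 and SLCO2B1 lie inside them, and that of SLC51B spans the start. The window of SLC51A is chr3:196216284-196216583 and that of SLC51B chr15:65045137-65045436, both on the + strand. Capitals mark the nuclear receptor hexamer site AGGTCA on either strand, which 13.8% of all 35116 windows hold. It occurs once in the SLC51B window and not in that of SLC51A.
SLC51A: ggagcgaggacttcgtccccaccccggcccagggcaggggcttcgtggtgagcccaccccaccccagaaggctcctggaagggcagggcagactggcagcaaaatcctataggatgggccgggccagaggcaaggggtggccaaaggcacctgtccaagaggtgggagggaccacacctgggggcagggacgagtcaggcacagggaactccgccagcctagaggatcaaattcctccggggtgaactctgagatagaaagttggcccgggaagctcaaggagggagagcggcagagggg
SLC51B: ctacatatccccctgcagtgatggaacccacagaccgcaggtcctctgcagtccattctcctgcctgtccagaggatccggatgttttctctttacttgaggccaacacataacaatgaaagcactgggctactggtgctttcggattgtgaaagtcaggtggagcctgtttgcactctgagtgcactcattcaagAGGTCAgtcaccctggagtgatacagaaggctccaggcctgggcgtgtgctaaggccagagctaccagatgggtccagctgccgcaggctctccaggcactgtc

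ABCC3 and ABCC4, basolateral exporters counted here with the bile acid carriers, also differed in direction. ABCC4, which encodes MRP4, was at 25.4, 21.2 and 21.0 CPM in siControl and at 17.0, 12.5 and 12.3 CPM in siDGUOK replicates, with no overlap. It fell by 0.70 on the log2 scale (standard error 0.21, edgeR adjusted p = 0.0260), and the adjusted p was 0.119 or 0.0562 without siControl replicate 1 or 3, and 0.0843 or 0.0778 without siDGUOK replicate 2 or 3, each of which ends the call. ABCC3, which encodes MRP3, was at 64.2, 70.4 and 70.4 CPM in siControl and at 82.3, 101 and 102 CPM in siDGUOK replicates. Its groups did not overlap either, and at a log2 fold change of 0.48 (standard error 0.11, edgeR adjusted p = 0.00554) it passed the adjusted p but not the fold change threshold. Without siControl replicate 2 or siDGUOK replicate 1 the value was 0.50 or 0.55 and the gene was called.

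The carriers that define bile acid traffic in liver were at or close to 0 in HepG2 cells of both groups. SLC10A1 (NTCP, the sodium-dependent uptake carrier) had 2 counts, both in siDGUOK replicate 1, and ABCB11 (BSEP, the canalicular bile salt pump) had 3, all in siControl replicate 3. SLC10A2, the ileal uptake carrier, had 0 counts in every library. The hepatocyte uptake carriers SLCO1B1 and SLCO1B3 had 2 and 5 counts, all in siDGUOK replicate 1. A difference in these genes was not detectable at this depth, and no fold is given for them.

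In lipid and sterol export ABCA1 fell, and the sterol transporter subunits ABCG5 and ABCG8 had fitted changes of opposite sign. ABCA1 (ENSG00000165029.15), the exporter of cholesterol and phospholipid to apolipoprotein A-I, was at 99.2, 87.3 and 97.6 CPM in siControl and at 60.5, 59.9 and 69.1 CPM in siDGUOK replicates. The groups were apart, at −0.58 on the log2 scale (standard error 0.11, edgeR adjusted p = 0.000849). ABCG8 was at 9.51, 10.98 and 10.0 CPM in siControl and at 5.46, 5.05 and 6.44 CPM in siDGUOK replicates. Although these values did not overlap, the log2 fold change of −0.85 had an adjusted p of 0.0608 in edgeR's test, and ABCG8 was not called. ABCG5 was at 7.91, 5.91 and 7.91 CPM in siControl and at 6.65, 9.97 and 10.1 CPM in siDGUOK replicates, which overlap (0.30, standard error 0.32, edgeR adjusted p = 0.588). Its fitted change was 0.17 without siControl replicate 2, 0.19 without siDGUOK replicate 3 and 0.46 without siDGUOK replicate 1.

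ABCG5 and ABCG8 work only as a heterodimer in sterol secretion into bile, and their genes lie head to head on chromosome 2. As Gencode bounds them, the genes share 137 exonic bases on opposite strands, 3.68% of those of ABCG5 and 1.35% of those of ABCG8. Counts of ABCG8 were 1.20, 1.86 and 1.27 times those of ABCG5 in siControl replicates 1, 2 and 3, and 0.821, 0.506 and 0.636 times in siDGUOK replicates. Per kb of exon the ratios were 0.440, 0.678 and 0.462 in siControl and 0.300, 0.185 and 0.233 in siDGUOK replicates. By merged exon length, 10179 bases for ABCG8 and 3720 for ABCG5, ABCG8 lay below ABCG5 in every library. By counts it lay above ABCG5 in every siControl library, so here too the order depends on the length used. As for the SLC51 pair, the siDGUOK ratios all lay below the siControl ratios, and the pair was chosen after its values were seen. The other exporters of this group were ABCB4 (MDR3, the phosphatidylcholine floppase), at 0.10 on the log2 scale (standard error 0.21), and ABCA7, at 0.05 (standard error 0.09), neither called. ABCG1, which hands cholesterol to HDL, had 4, 0 and 3 counts in siControl and 1, 46 and 0 counts in siDGUOK replicates, so 1 library held nearly all of its counts, and it was not tested.

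**Figure D2:**
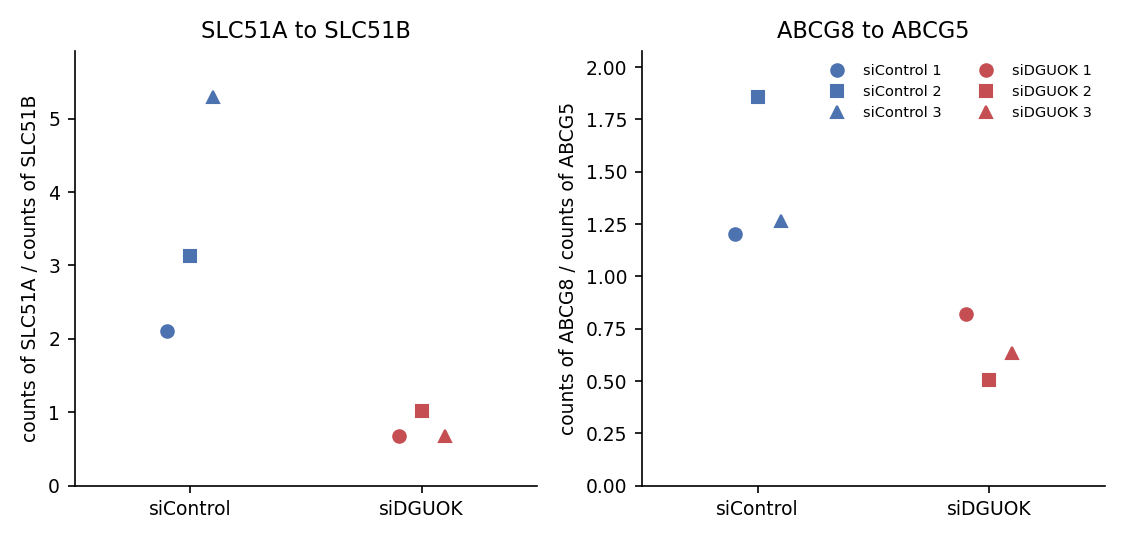
Ratio of counts within each library, not divided by exon length, for SLC51A to SLC51B (left) and ABCG8 to ABCG5 (right). There is 1 point per library, and the marker shape gives the replicate number. All 3 siDGUOK libraries lie below all 3 siControl libraries in both panels, with SLC51A to SLC51B between 2.10 and 5.29 in siControl and between 0.678 and 1.02 in siDGUOK.

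The promoter windows of ABCG8 (chr2:43838721-43839020, + strand) and ABCG5 (chr2:43838790-43839089, − strand) share 231 bases, and their RefSeq starts lie 132 bases apart. The ABCG8 window is printed because both genes are read from this stretch, in opposite directions; capitals mark the bases that the ABCG5 window also holds. None of the 10 motifs searched was found in the ABCG8 window.
ABCG8: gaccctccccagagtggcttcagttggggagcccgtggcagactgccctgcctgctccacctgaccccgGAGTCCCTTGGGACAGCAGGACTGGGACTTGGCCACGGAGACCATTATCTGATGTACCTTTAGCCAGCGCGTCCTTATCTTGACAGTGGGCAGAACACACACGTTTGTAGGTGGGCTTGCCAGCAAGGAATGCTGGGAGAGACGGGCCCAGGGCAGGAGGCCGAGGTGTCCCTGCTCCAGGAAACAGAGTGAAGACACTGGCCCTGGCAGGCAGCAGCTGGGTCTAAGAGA

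Among the exporters of drugs and conjugates 3 of the 9 tested genes were called, all lower, beside 6.68% of all genes. These were ABCC6, ABCG2 and SLC47A1, and none of them was called without siControl replicate 3. By mean level per kb of exon in siControl cells, the 5 highest of the 83 genes were SLC22A31 (25.8 CPM per kb), ABCC2 (23.8), ABCC1 (19.8), SLCO4A1 (16.2) and ABCB1 (14.7). This order rests on the merged length of all annotated exons. Without division by length, the siControl mean of SLC22A31 (69.9 CPM) lay below those of ABCC2 (186) and ABCC1 (173). ABCC2 encodes MRP2, which exports conjugates into bile. It was at 186, 181 and 192 CPM in siControl and at 197, 214 and 230 CPM in siDGUOK replicates, which do not overlap, and was not called (log2 fold change 0.20, standard error 0.08, edgeR adjusted p = 0.117). ABCC1 (MRP1) was between 142 and 212 CPM over the 6 libraries, with a log2 fold change of 0.05 and groups that overlapped. ABCB1 encodes P-glycoprotein, the multidrug exporter; it was between 88.5 and 100.1 CPM in the 6 libraries, with a fitted change of 0.02 (standard error 0.10).

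ABCG2 encodes BCRP, an exporter of drugs and urate. Its level was 12.8, 11.9 and 12.3 CPM in siControl and 8.97, 5.60 and 5.38 CPM in siDGUOK replicates, with no overlap and siDGUOK replicate 1 nearest to the controls. It fell by 0.89 on the log2 scale (standard error 0.29, edgeR adjusted p = 0.0394), and of the 6 fits that left out 1 library the call was kept only without siDGUOK replicate 1 (−1.19). Without siControl replicate 1, 2 or 3 the adjusted p was 0.110, 0.0682 or 0.103, and without siDGUOK replicate 2 or 3 it was 0.116 or 0.113. SLC47A1 encodes MATE1, a proton-coupled exporter of organic cations, and was at 43.8, 48.6 and 41.1 CPM in siControl and at 32.9, 35.0 and 19.6 CPM in siDGUOK replicates. Every siDGUOK value was below every siControl value, at −0.61 on the log2 scale (standard error 0.19, edgeR adjusted p = 0.0279). Its call was lost without siControl replicate 1, 2 or 3, at an adjusted p of 0.0722, 0.108 or 0.0701, and without siDGUOK replicate 3, at a log2 fold change of −0.40.

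ABCC6 encodes a hepatic exporter whose loss causes pseudoxanthoma elasticum. It was at 48.7, 57.3 and 57.2 CPM in siControl and at 26.6, 32.4 and 45.1 CPM in siDGUOK replicates. The groups did not overlap. Near-identical pseudogenes make these counts uncertain, since reads that align to several places are left out, and the pseudogene ABCC6P1 had 532, 676 and 365 counts in siControl and 335, 434 and 416 counts in siDGUOK replicates. The fitted change of ABCC6 was −0.64 on the log2 scale (standard error 0.17, edgeR adjusted p = 0.0119), and the call was lost without siControl replicate 3 (adjusted p 0.0719) or siDGUOK replicate 1 (adjusted p 0.0690). ABCC6P1 had a log2 fold change of −0.63 (edgeR adjusted p = 0.0238), lost as a call without siControl replicate 2 or 3 (−0.57, −0.60) or siDGUOK replicate 1 or 3 (−0.55, −0.57). A further pseudogene, ABCC6P2, had 50, 104 and 24 counts in siControl and 38, 53 and 73 counts in siDGUOK replicates. Its groups overlapped and it was not called (log2 fold change −0.28, edgeR adjusted p = 0.805, from −0.50 to 0.22 in leave-one-out).

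**Figure D3:**
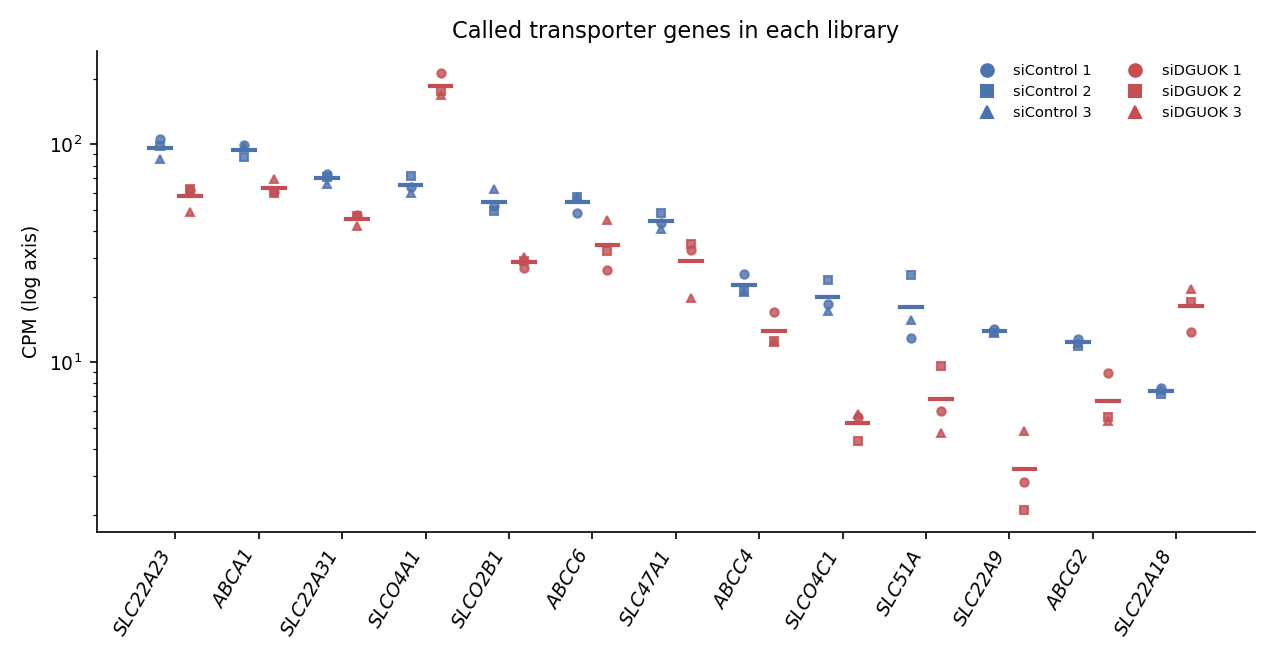
CPM in every library on a log axis for the 13 called transporter genes, ordered by mean siControl level; horizontal lines are group means of 3 libraries and marker shapes give the replicate number. In SLCO4A1 and SLC22A18 all siDGUOK libraries lie above all siControl libraries, and in the other 11 genes all lie below.

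Among the OATP carriers, which take up organic anions without sodium, 4 genes were tested and 3 called, in both directions, where 14.1% of all genes were called. SLCO4A1 (ENSG00000101187.15; chromosome 20, from 62642503 to 62685785) encodes OATP4A1, a carrier of thyroid hormones and prostaglandins. It was at 63.7, 71.3 and 59.6 CPM in siControl and at 214, 176 and 168 CPM in siDGUOK replicates. The groups lay far apart, at 1.52 on the log2 scale (standard error 0.11, edgeR adjusted p = 1.31e-08), the highest value among the called members. The antisense gene SLCO4A1-AS1, which overlaps 8.67% of the exonic bases of SLCO4A1, had 148, 113 and 130 counts in siControl and 275, 169 and 263 counts in siDGUOK replicates and was not called (log2 fold change 0.52). That overlap is from Gencode 44, while the authors used Gencode 27. Under default settings the counting ignores strand, and reads from stretches shared in Gencode 27 would be in neither count.

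SLCO4C1 and SLCO2B1 went the other way. SLCO4C1 (ENSG00000173930.8; chromosome 5, from 102233986 to 102296284) encodes OATP4C1, known as a carrier of the kidney tubule. It was at 18.5, 23.9 and 17.3 CPM in siControl and at 5.62, 4.37 and 5.80 CPM in siDGUOK replicates. No siDGUOK value came near the siControl values (log2 fold change −1.92, standard error 0.26, edgeR adjusted p = 2.65e-05). SLCO2B1 encodes OATP2B1, an uptake carrier of the hepatocyte's basolateral membrane, and was at 52.1, 49.4 and 62.6 CPM in siControl and at 27.02, 29.3 and 30.3 CPM in siDGUOK replicates. All siDGUOK values lay below the siControl values (log2 fold change −0.92, standard error 0.15, edgeR adjusted p = 0.000146). Summed over the OATP genes, levels per kb were 24.9, 27.7 and 24.4 CPM per kb in siControl and 57.7, 48.3 and 46.2 CPM per kb in siDGUOK replicates, with SLCO4A1 the most abundant gene of the sum.

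Organic anion carriers of the SLC22 family included the lowest value of all tested members. SLC22A9 (ENSG00000149742.9; chromosome 11, from 63369785 to 63410294) encodes OAT7, a liver carrier that exchanges sulfated steroids for short-chain fatty acids. It was at 14.2, 13.6 and 13.8 CPM in siControl and at 2.81, 2.09 and 4.83 CPM in siDGUOK replicates. The siControl libraries were nearly alike and the siDGUOK libraries all far below them (log2 fold change −2.08, standard error 0.34, edgeR adjusted p = 0.000215). Its neighbours SLC22A10 and SLC22A25 on chromosome 11 did not pass the count filter. SLC22A10 had 2, 18 and 5 counts in siControl and 0 in each siDGUOK replicate, which is at least 9.61-fold lower against a floor of 3 counts over the group. SLC22A25 had 5, 33 and 5 counts in siControl and 0 in each siDGUOK replicate, at least 16.5-fold lower by the same floor. Most of these siControl counts came from replicate 2, without which the bounds were 4.41 for SLC22A10 and 6.30 for SLC22A25. Without siControl replicate 1 that of SLC22A10 was 14.6. The gene bodies are 24422 bases apart between SLC22A25 and SLC22A10 and 58001 bases apart between SLC22A10 and SLC22A9. SLC22A25 was called lower by DESeq2 without shrinkage, where it was tested, and was not called by DESeq2 with shrunken fold changes or by edgeR with no count filter.

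**Figure D4:**
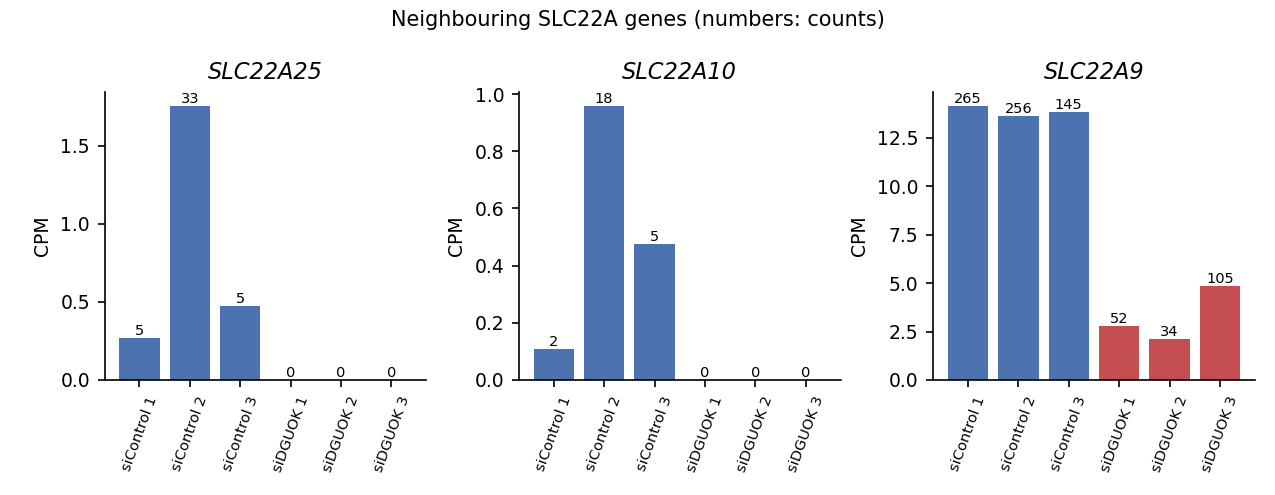
CPM in each library for the neighbouring chromosome 11 genes SLC22A25, SLC22A10 and SLC22A9, on separate linear axes that start at 0, with the count of each library printed above its bar. SLC22A25 and SLC22A10 have 0 counts in the 3 siDGUOK libraries, and SLC22A9 has 34 to 105 counts there against 145 to 265 in siControl.

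The promoter window of SLC22A10 is printed with that of SLCO2B1, which was called lower, because these were the members whose windows hold CAAAGTCCA, a motif of the HNF4 type. Of all windows 0.384% hold CAAAGTCCA on either strand. The SLC22A10 window also holds the AP-1 type motif. SLC22A9 has no window in the table. The SLC22A10 window is chr11:63289653-63289952 and the SLCO2B1 window, 1 of 2 for that gene, is chr11:75159582-75159881, both on the + strand, with the motif in capitals in either orientation.
SLC22A10: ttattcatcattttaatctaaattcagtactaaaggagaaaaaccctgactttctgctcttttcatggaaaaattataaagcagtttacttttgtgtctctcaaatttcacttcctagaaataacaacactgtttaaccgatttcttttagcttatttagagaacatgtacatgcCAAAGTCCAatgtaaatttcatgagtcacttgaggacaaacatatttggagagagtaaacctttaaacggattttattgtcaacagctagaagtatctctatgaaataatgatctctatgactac
SLCO2B1: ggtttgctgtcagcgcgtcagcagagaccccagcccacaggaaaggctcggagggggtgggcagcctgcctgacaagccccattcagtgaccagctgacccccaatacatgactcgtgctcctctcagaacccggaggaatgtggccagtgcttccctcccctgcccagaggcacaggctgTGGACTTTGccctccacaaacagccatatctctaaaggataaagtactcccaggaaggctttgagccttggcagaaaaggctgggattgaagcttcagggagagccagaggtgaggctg
The motif was 1 of 10 searched, chosen with the values known, and 59 of the 83 members had a window. A match is a run of letters and not a measured site. The others were AGGTCA, its inverted repeat AGGTCANTGACCT, GTTAAT and GTTAATNATTAAC (HNF1 type), TGANTCA (AP-1 type), TCACNCCAC (sterol regulatory type), TGACNNNGC (antioxidant response type), CACGTG (E-box) and GGGCGG (GC box). Over all windows their shares were 13.8%, 0%, 6.88%, 0.00570%, 7.71%, 1.13%, 13.4%, 7.26% and 45.0% in that order. Over the 83 windows of members they were found in 8, 0, 5, 0, 8, 1, 13, 9 and 34. The letters of AGGTCA and its repeat overlap, as do those of GTTAAT and GTTAATNATTAAC.

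Of the SLC22 and SLC10 genes without an assigned or with another substrate, 7 were tested and 3 called, beside 14.1% of all genes. SLC22A18, a gene of the imprinted region at the end of the short arm of chromosome 11, was at 7.64, 7.14 and 7.44 CPM in siControl and at 13.7, 19.0 and 21.6 CPM in siDGUOK replicates. All siDGUOK values were above the narrow siControl range, at 1.29 on the log2 scale (standard error 0.25, edgeR adjusted p = 0.00110). It overlaps the antisense gene SLC22A18AS, which had between 11 and 53 counts per library. SLC22A23 was at 106, 98.1 and 85.3 CPM in siControl and at 61.9, 62.2 and 49.1 CPM in siDGUOK replicates, without overlap (log2 fold change −0.75, standard error 0.12, edgeR adjusted p = 0.000251). It shares 15.6% of its exonic bases with PSMG4 on the other strand, which had a log2 fold change of 0.37. SLC22A31, the gene with the highest level per kb in siControl cells, was at 73.5, 70.6 and 65.5 CPM there and at 47.3, 46.9 and 42.4 CPM in siDGUOK replicates without overlap (log2 fold change −0.62, standard error 0.12, edgeR adjusted p = 0.00104). SLC10A7, SLC10A3, SLC22A15 and SLC22A17 were not called. SLC10A5 had 0 counts in the siControl libraries and 12, 0 and 24 in siDGUOK replicates 1, 2 and 3, at least 10.4-fold higher against a floor of 3 counts over the group. Without siDGUOK replicate 3 this bound was 5.61, the groups overlapped, and SLC10A5 was called in none of the edgeR or DESeq2 fits that tested it.

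Of the carriers of organic cations and carnitine, SLC22A3 (OCT3) was at 13.7, 21.0 and 14.6 CPM in siControl and at 19.4, 12.7 and 20.2 CPM in siDGUOK replicates, and SLC22A5 (OCTN2, the carnitine carrier) was between 6.41 and 11.2 CPM over all libraries. Both overlapped, at log2 fold changes of 0.09 and −0.09, and neither was called. The liver carrier of organic anions SLC22A7 (OAT2) had 20, 38 and 1 counts in siControl and 9, 0 and 0 counts in siDGUOK replicates and was not tested.

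Neither an ABCB gene of mitochondria and lysosomes (5 tested) nor any other ABCA gene (5 tested) was called by edgeR, where 14.1% of all genes were. At an unadjusted p under 0.05 there was 1 of them, ABCB8, and DESeq2 called 0. The peroxisomal carrier ABCD3 and the lysosomal vitamin B12 carrier ABCD4 had log2 fold changes of −0.27 each, with groups that overlapped and no call.

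The other genes of these pathways were read from lists of bile acid synthesis, regulators, membrane partners and sterol transport, 61 genes in all. Of 57 tested, 2 were called higher and 18 lower, beside 7.42% and 6.68% of all genes, with a median log2 fold change of −0.24. In bile acid synthesis and conjugation 6 of 14 tested genes were called, all lower, where 6.68% of all genes were. CYP39A1 went the other way, with 10, 0 and 0 counts in siControl and 50, 22 and 65 counts in siDGUOK replicates. It was not called (log2 fold change 3.58, edgeR adjusted p = 0.0775), except in 1 of the 6 leave-one-out fits. AKR1D1, which reduces the steroid ring, was at 19.0, 13.7 and 17.6 CPM in siControl and at 5.40, 4.06 and 8.42 CPM in siDGUOK replicates. The peroxisomal side chain enzymes ACOX2, HSD17B4 and SCP2 had log2 fold changes of −1.12, −1.04 and −0.82, the acyl-CoA synthetase SLC27A2 one of −1.06, and BAAT, which joins bile acids to glycine and taurine, one of −0.79. CYP7A1, the rate-limiting enzyme of the classic pathway, had 7, 47 and 9 counts in siControl and 0 in each siDGUOK replicate. This is at least 24.2-fold lower against a floor of 3 counts over the group. With all libraries CYP7A1 did not pass the count filter; of the 4 leave-one-out fits that tested it, only that without siControl replicate 1 called it (adjusted p 0.0420), and DESeq2 without shrinkage and edgeR with no count filter called it lower. Most of its counts came from siControl replicate 2, without which the bound was 10.1.

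Among regulators, 1 of 20 tested genes was called higher and 4 lower, beside the same 7.42% and 6.68% of all genes. NR1H4, which encodes FXR, was at 33.1, 20.3 and 20.8 CPM in siControl and at 7.997, 7.02 and 8.005 CPM in siDGUOK replicates, with no overlap. Its log2 fold change of −1.69 (standard error 0.24) had an adjusted p of 5.19e-05 in edgeR's test. KLB, the coreceptor through which FGF19 acts on hepatocytes, was at 71.4, 57.6 and 60.7 CPM in siControl and at 19.6, 17.9 and 16.9 CPM in siDGUOK replicates, and the receptor FGFR4 had a log2 fold change of −0.54, which without siControl replicate 1 or siDGUOK replicate 2 was −0.47 and not called. NR1I2, which encodes the xenobiotic receptor PXR, was at 18.3, 15.6 and 12.2 CPM in siControl and at 22.6, 27.7 and 41.8 CPM in siDGUOK replicates (log2 fold change 0.99, edgeR adjusted p = 0.00460). HNF4A, a hepatocyte transcription factor, had a log2 fold change of −0.51, close to the threshold, and lost its call without siControl replicate 1 (−0.46) or siDGUOK replicate 3 (−0.47). With TMM before the count filter and library sizes over the tested genes it was at −0.4998, short of the threshold.

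Membrane partners had 2 genes lower and 1 higher of 12 tested, where all genes gave 6.68% and 7.42%. PDZK1, a scaffold that binds the tails of several apical carriers, was at 30.7, 23.4 and 26.6 CPM in siControl and at 8.54, 9.73 and 6.30 CPM in siDGUOK replicates (log2 fold change −1.72, edgeR adjusted p = 2.23e-05). The related scaffold SLC9A3R1 had a log2 fold change of −0.73, and RDX, which ties canalicular MRP2 to actin, one of 0.61. Sterol transport partners had 6 of 11 tested genes called, all lower, beside 6.68% of all genes: APOA1 (−1.05), PLTP (−1.001), LCAT (−0.99), NPC2 (−0.74), SCARB1 (−0.64) and APOE (−0.57), each a log2 fold change. NPC1, with groups apart, was higher by the adjusted p alone (log2 fold change 0.48, edgeR adjusted p = 0.000608). It was called without siControl replicate 2 (0.502) or siControl replicate 3 (0.501).

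**Figure D5:**
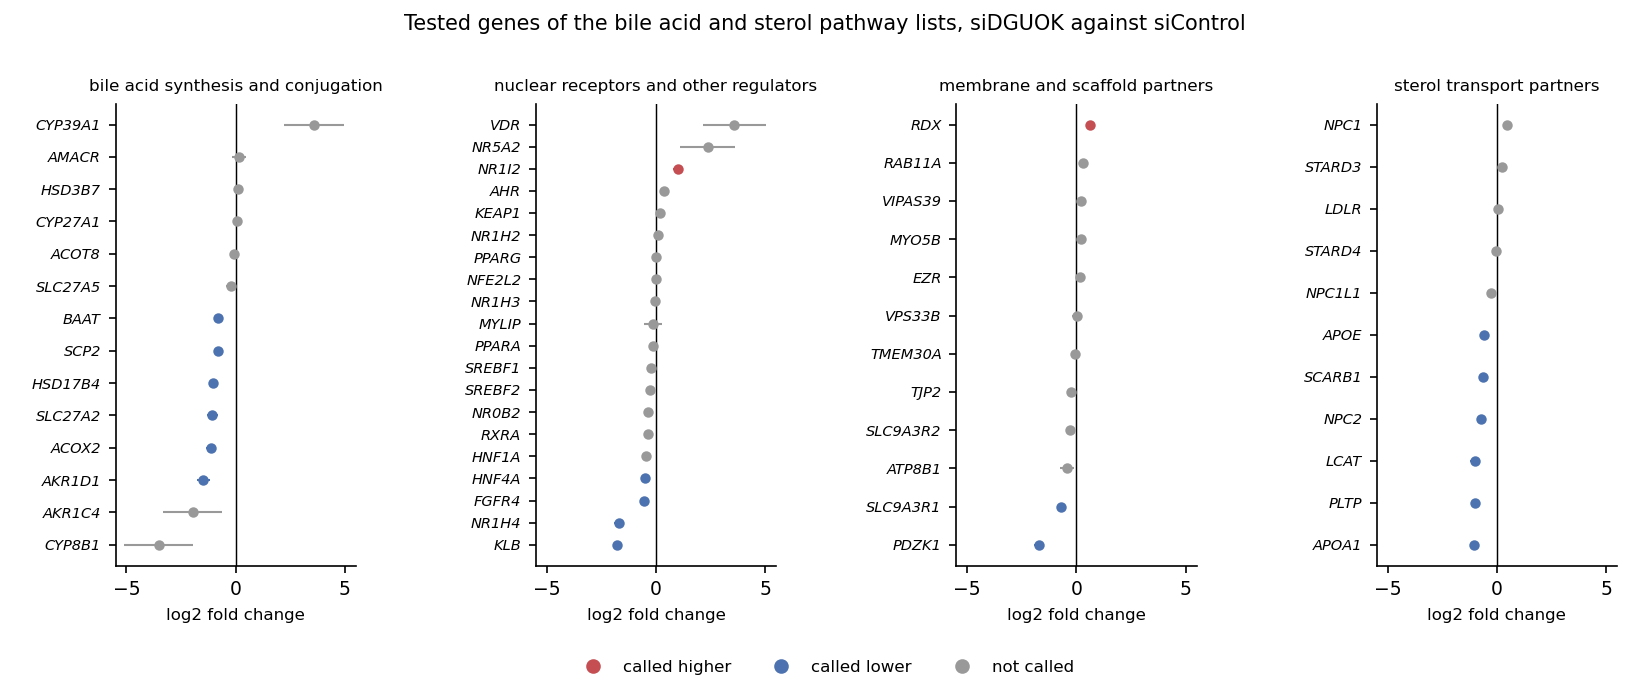
Log2 fold change in siDGUOK against siControl cells for the tested genes of 4 pathway lists, with bars of 1 standard error from edgeR's fit. Red was called higher, blue lower and grey not called. Of 57 genes 18 are blue and 2 are red, NR1I2 and RDX.

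Of 9 hepatocyte markers 8 were called lower, where 6.68% of all genes were, SERPINA1 being the other. APOA1 and HNF4A are in both the markers and the pathway lists. The call of AHSG was lost without siControl replicate 2 (−0.46), and that of HNF4A without siControl replicate 1 (−0.46) or siDGUOK replicate 3 (−0.47). In CPM the summed level of the markers was 55891, 51782 and 49956 in siControl and 31449, 27399 and 26299 in siDGUOK replicates. ALB was the most abundant of them in each siControl library and SERPINA1 in each siDGUOK library. In bulk RNA, fewer cells of a type and less RNA per cell cannot be told apart. Of 5 tested cholangiocyte markers KRT19 was called higher and EPCAM lower, beside 7.42% and 6.68% of all genes, and the list summed to 1406, 1641 and 1658 CPM in siControl and 2868, 3062 and 3252 CPM in siDGUOK replicates, KRT19 being the most abundant gene. Leukocyte markers summed to 5.29, 8.42 and 6.58 CPM in siControl and 6.38, 12.4 and 5.66 CPM in siDGUOK replicates, with PTPRC highest in the pool of libraries but not in each, and MARCO at 0. Of 5 tested edgeR called 0, with 0 at an unadjusted p under 0.05. DESeq2 without shrinkage called 1, CD163, which edgeR did not test with all libraries and which had 9, 23 and 8 counts in siControl and 0 in each siDGUOK replicate. CSF1R had 16, 0 and 11 counts in siControl and 0 in each siDGUOK replicate, and CD14 was at −1.48 on the log2 scale and not called. Endothelial markers summed to 1.66, 1.39 and 2.29 CPM in siControl and 4.48, 58.5 and 4.05 CPM in siDGUOK replicates; STAB2 was at 0, and VWF had the highest level in the pool of libraries through siDGUOK replicate 2 alone. Of 3 tested edgeR called 0, with 2 at an unadjusted p under 0.05, and DESeq2 called 1. In leave-one-out the endothelial markers PECAM1, CDH5 and KDR were each called higher in 1 fit, as was PTPRC of the leukocyte markers. Most of the endothelial sum is held by siDGUOK replicate 2. Of the stellate and fibroblast markers COL1A1 was called higher (4.04 on the log2 scale) and PDGFRB lower (−1.02). COL3A1 had 0, 1 and 0 counts in siControl and 148, 254 and 9 counts in siDGUOK replicates. It did not pass the filter with all libraries, and was called higher in 3 of the 4 leave-one-out fits that tested it, the exception being without siControl replicate 2 (adjusted p 0.130). The PDGFRB call was kept only without siDGUOK replicate 2, with an adjusted p of 0.0843, 0.125 or 0.0551 without siControl replicate 1, 2 or 3 and of 0.0559 or 0.101 without siDGUOK replicate 1 or 3. That list summed to 44.8, 42.0 and 37.4 CPM in siControl and 62.9, 68.0 and 47.5 CPM in siDGUOK replicates. ACTA2 was its most abundant gene and was not called. The kidney proximal tubule list had counts for CUBN alone, at most 1.29 CPM, with LRP2 and SLC34A1 at 0. Their part in the changes of the transporter genes was not tested.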

How the data were processed

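RNA of 3 siControl and 3 siDGUOK cultures of HepG2 cells was measured by RNA-seq. The labels give the molecule as poly(A) RNA, but leave the choice of enrichment, the library kit and strandedness unfilled. They call the samples independent biological replicates, handled side by side, and nothing more tells of the cultures. Groups and replicate numbers were taken from titles and library names. The labels name Bowtie 1.1.2, STAR 2.6.1 and featureCounts 1.6.5. The authors removed reads of tRNA, rRNA, adapters and spike-ins, aligned what was left to GRCh38 and Gencode 27, dropped low-complexity alignments and counted reads per gene. The deposited values are whole counts per gene. The default of featureCounts ignores strand and drops reads with several alignments or with several genes beneath them, so counts of overlapping or duplicated genes are uncertain.

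Genes were tested with edgeR 4.0.16 in R 4.3.3 (robust quasi-likelihood test, TMM, filterByExpr with a minimum count of 10, condition alone), with Benjamini-Hochberg adjustment over all 14476 genes tested. A call needs an adjusted p under 0.05 and a log2 fold change beyond 0.5 in either direction. Fold changes are siDGUOK against siControl, and a standard error is the log2 fold change over the root of the F statistic. CPM are counts over TMM-scaled library sizes; CPM per kb divides by the merged exon length of Gencode 44. An exact two-sided test of 3 against 3 libraries cannot go below p = 0.10, so none was run. Bounds use a floor of 3 counts over the group and cover counting error only.

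Library sizes were summed over all genes and TMM was computed after the filter. This order was chosen after the counts of called genes were seen, to match an earlier processing of these data. Of 4 such orders all gave the same 13 members as called. Alternatives were DESeq2 1.42.0 with and without shrinkage, other scalings, filters and fold thresholds, a replicate block, and leaving out each library.

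The transporter genes and the lists of pathway and marker genes were chosen with earlier results of these data known. Genes named are the called members, 24 transporters of hepatocytes, the 5 members with the highest CPM per kb in siControl cells, called genes of the pathway lists, and DGUOK; others named were chosen after their values were seen. CYP46A1 and UMOD of the lists are not in the count table. Promoter windows are RefSeq's on GRCh38.p14, and motifs were sought on both strands.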

Additional observations from a re-analysis of the deposited data

How the results depend on the processing

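Of the 13 alternatives that keep all libraries, those that change the scaling, the count filter or the order of normalization, and the block on replicate number, each called the same 13 transporter genes. DESeq2 without shrinkage called 14, with SLC22A25 added, and no fold change threshold gave 14, with ABCC3 added. The 3 other orders of library size and normalization were added after the data were seen, and over all 4 orders between 2032 and 2051 genes were called.

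With an absolute log2 fold change above 1, 819 genes were called over all genes, 5 transporter genes, of which 3 lower, and 9 genes of the pathway lists; the higher threshold itself lowers these counts. The median log2 fold change of the tested transporter genes was −0.094 among genes with a mean CPM above 1, where fewer genes were tested. Leave-one-out, where 49 to 51 transporter genes were tested instead of 48, gave medians from −0.12 to −0.012. The sign of the median of 0.03 therefore does not hold across these settings; the cause was not tested. Transporter genes called ranged from 9 to 13 in leave-one-out, where between 1704 and 1935 of all genes were called. Those called lower ranged from 7 (without siControl replicate 3) to 10, where between 790 and 988 of all genes were called lower.

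Some genes that were not called changed sign in leave-one-out. SLC22A3, with values from −0.041 (without siDGUOK replicate 3) to 0.31, was also at −0.032 without siControl replicate 1 and −0.012 without siDGUOK replicate 1. ABCB1, with values from −0.020 (without siDGUOK replicate 1) to 0.068, was also at −0.018 without siControl replicate 2 and −0.0089 without siDGUOK replicate 2. SLC22A5 ran from −0.30 to 0.076 (without siControl replicate 2), with 0.019 without siDGUOK replicate 2. ABCB4 ran from −0.019 (without siControl replicate 3) to 0.30, and ABCC1 from −0.092 (without siDGUOK replicate 3) to 0.18. The cause was not tested.

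With replicate number as a block, 2186 of 15597 genes tested and 13 transporter genes were called, and DGUOK was at −2.58. Deviations from the group mean correlated between the siControl and siDGUOK libraries of the same number at 0.024, 0.017 and −0.0022, so no pairing was seen.

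These data have 3 libraries a group, 1 siRNA pool and 1 time point. At this depth 35 of the 83 transporter genes were untested, among them the main bile acid carriers of liver, and 19 were at or under 3 counts in both groups. RNA level says nothing of protein at the membrane or of transport. Of the 13 calls 9 held in each of the 6 leave-one-out fits; ABCG2, ABCC4, ABCC6 and SLC47A1 did not.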
